A study of Mus musculus with 12 samples.

Results

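The miR-29 family was followed in the blood of mice lacking Tff3. Its members were the 3 guide strands miR-29a, miR-29b and miR-29c (mmu-miR-29a, mmu-miR-29b and mmu-miR-29c in the table), chosen by exact miRNA name from the 710 mouse miRNAs of the array, and all 3 were found. A guide strand is the arm of a miRNA hairpin that is loaded into the silencing complex, and the other arm, the passenger or star strand, is mostly degraded. The array held 12 samples of total RNA from peripheral blood, 6 from mice labelled tff3 KO and 6 from mice labelled wild type, with 3 males and 3 females of each genotype per the labels. Tff3 encodes trefoil factor 3, a small secreted peptide of mucus-producing epithelia. The labels give neither the strain, the age nor the allele of the mice, and no treatment. The array measures miRNAs alone, so the loss of Tff3 was not checked.

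miR-29 miRNAs repress transcripts of the extracellular matrix, among them collagens, elastin and fibrillin, and they fall in many fibrotic tissues. They also target the DNA methyltransferases Dnmt3a and Dnmt3b and the survival factor Mcl1. In T cells miR-29 limits interferon gamma production by repressing the transcription factors T-bet and Eomes and the cytokine transcript itself, and the family is expressed in lymphocytes. A miRNA finds its targets mainly through its seed, bases 2 to 8 from the 5′ end, so miRNAs with the same seed share most of their predicted targets.

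The 3 guides are shown because they share a seed and differ elsewhere, which is all that lets a probe tell them apart. They are printed 5′ to 3′ with the seed in capitals, as RefSeq lists them under the names miR-29a-3p, miR-29b-3p and miR-29c-3p.
miR-29a: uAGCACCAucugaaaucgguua
miR-29b: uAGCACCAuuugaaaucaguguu
miR-29c: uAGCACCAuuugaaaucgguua
Of 1679 mature mouse miRNA names in the RefSeq table, 3 carry this seed (0.179%), and they are these 3. Counted from 1 at the 5′ end, miR-29a and miR-29c differ at 1 position, C10U, with the base of miR-29a first. miR-29b and miR-29c differ at 3 positions, A18G, G21U and U22A, with the base of miR-29b first, and miR-29b is 23 bases long against 22 for the others. The substitutions from miR-29a to miR-29b are C10U, G18A, U21G and A22U. miR-29b ends in AGUGUU, an ending that in human cells was found to direct it to the nucleus. These 6 letters, searched for at the 3′ end of the listed strand alone, close 2 of the 1679 mature names (0.119%). Cross-hybridisation between miR-29a and miR-29c, which differ by a single base, was not tested.

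The family comes from 4 hairpins in 2 clusters, and miR-29b is made from both. In the hairpins below the guide is in capitals, and coordinates are those of RefSeq on the build GRCm38.p6.
Mir29a, chr6:31062660-31062747, minus strand: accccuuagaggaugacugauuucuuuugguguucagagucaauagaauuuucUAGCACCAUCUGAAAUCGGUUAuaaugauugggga
Mir29b-1, chr6:31063023-31063093, minus strand: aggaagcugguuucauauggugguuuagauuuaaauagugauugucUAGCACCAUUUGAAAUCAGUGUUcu
Mir29b-2, chr1:195037040-195037120, plus strand: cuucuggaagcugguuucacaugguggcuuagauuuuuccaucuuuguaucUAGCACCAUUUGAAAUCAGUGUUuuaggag
Mir29c, chr1:195037547-195037634, plus strand: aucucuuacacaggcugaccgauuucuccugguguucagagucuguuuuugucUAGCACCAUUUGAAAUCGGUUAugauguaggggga
On chromosome 6 the hairpins of miR-29a and miR-29b-1 lie 275 bases apart, and no other RefSeq gene spans them. On chromosome 1 the hairpins of miR-29b-2 and miR-29c lie 426 bases apart within the long non-coding RNA gene A330023F24Rik. The mature miR-29b of both hairpins has the same letters, so its probe cannot tell the 2 loci apart. miR-29a and miR-29c each come from 1 cluster. Whether the probe of either reads that cluster alone was not tested.

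The deposited intensities were linear and not normalized between arrays, and summed intensity per array ran from 472963 to 814468 in knockouts and from 391740 to 1111471 in wild types. Arrays are named by their column number in the raw table, 1 to 6 for knockouts and 7 to 12 for wild types, since the labels count the wild types from 1. Erythroid miRNAs were bright on every array, with a mean level of 7 of them between 12.70 and 13.34 in knockouts and between 12.54 and 13.02 in wild types. In bulk blood, fewer cells of a type and less RNA per cell cannot be told apart. Array 8 had the highest myeloid mean (10.78, the other wild types being at 9.70 to 10.07), and array 6 the highest mean of stromal and smooth muscle miRNAs (8.80 against 7.35 to 7.90 in the other knockouts).

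All 3 guides gave signal well inside the range of the array. miR-29a read 2881, 6298, 3629, 3165, 4801 and 4981 in knockouts 1 to 6. It read 6698, 10699, 3349, 2449, 2205 and 2337 in wild types 7 to 12. Wild types 7 and 8 lay above every knockout and wild types 10, 11 and 12 below every knockout, so the wild types spread to either side of the knockouts. These readings are not normalized between arrays. Summed intensity was 814648 and 1111471 on arrays 7 and 8, and 391740 to 451777 on arrays 10 to 12. miR-29a was brighter than 95.1% to 96.5% of the miRNAs on each array, and it held 0.517% to 0.963% of the summed intensity.

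miR-29b read 472, 816, 308, 224, 236 and 612 in the knockouts and 392, 724, 516, 272, 280 and 264 in the wild types. Knockouts 4 and 5 were the dimmest of all arrays and knockout 2 the brightest. miR-29c read 356, 616, 316, 280, 340 and 568 in the knockouts and 572, 1128, 368, 228, 260 and 280 in the wild types. Wild type 8 was highest for miR-29c as for miR-29a, and wild type 10 was lowest. miR-29b was brighter than 75.5% to 87.5% of the miRNAs on an array, and miR-29c than 77.6% to 87.3%. Brightness depends on the probe as well as on the amount of RNA, so the 3 members were not set against each other in level.

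**Figure D1:**
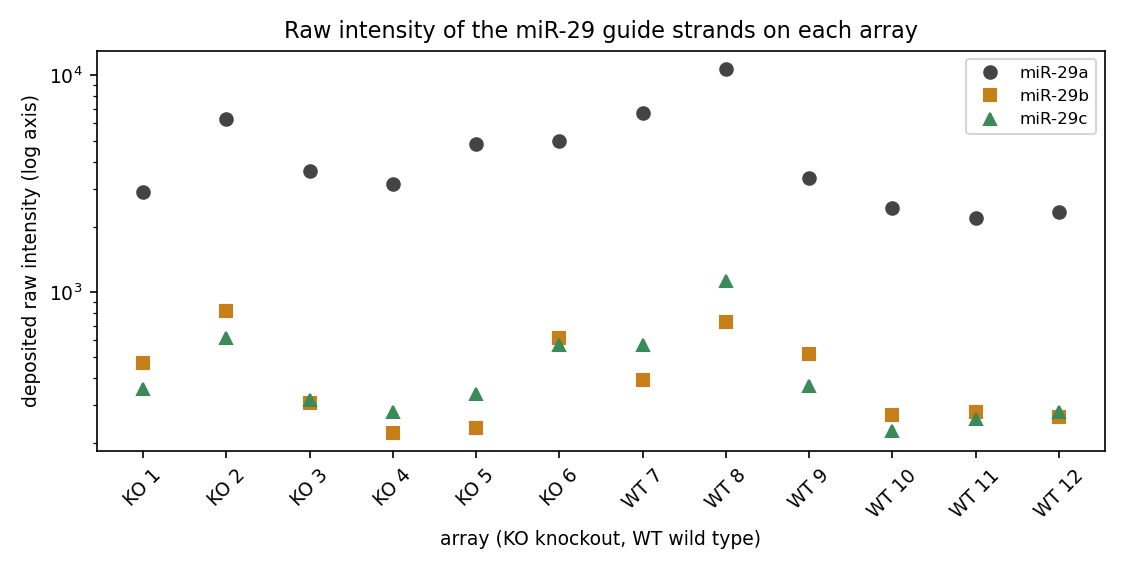
Deposited raw intensity of miR-29a, miR-29b and miR-29c on each array, on a log axis, with 1 point per array and miRNA. miR-29a reads 2205 to 10699 and the other members read 224 to 1128, and array 8 is the brightest for miR-29a and miR-29c.

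The main comparison asked whether the family differs between Tff3 knockouts and wild types, and none of its members passed the test. Levels are log2(quantile-normalized intensity + 50), a scale on which 1 unit is a doubling and which understates changes of dim miRNAs. miR-29a was at 11.95, 12.52, 11.87, 12.28, 11.91 and 11.95 in knockouts 1 to 6 and at 12.24, 12.46, 12.03, 12.03, 11.87 and 11.87 in wild types 7 to 12. Knockout 2 and wild type 8 lay at the top of their groups, and the ranges nearly coincided. Mean levels, each over 6 arrays with its SD, were 12.08 ± 0.26 for the knockouts and 12.08 ± 0.23 for the wild types. Knockouts minus wild types came to 0.00030 on the log2 scale, with a standard error of 0.16 and a 95% confidence interval of -0.34 to 0.34.

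miR-29b was the most variable member among the knockouts. It was at 9.25, 9.38, 8.87, 8.23, 8.27 and 9.18 in knockouts 1 to 6 and at 8.75, 9.03, 9.45, 8.66, 8.69 and 8.17 in wild types 7 to 12. The knockouts fell apart into 4 arrays at 8.87 or above and 2 at 8.23 and 8.27, with wild types on either side. The knockouts averaged 8.87 ± 0.51 and the wild types 8.79 ± 0.43. The difference was 0.07 (standard error 0.24, interval -0.44 to 0.58).

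miR-29c was at 8.68, 8.83, 8.90, 8.57, 8.68 and 9.13 in knockouts 1 to 6 and at 9.12, 9.43, 8.79, 8.43, 8.63 and 8.30 in wild types 7 to 12. The wild types had both the highest and the lowest values, so all 6 knockouts lay within their range. The knockouts averaged 8.80 ± 0.20 and the wild types 8.78 ± 0.43. The difference was 0.016 (standard error 0.19, interval -0.39 to 0.42). Against wild types 7 and 8 alone (columns 1 to 8), the log2 difference of miR-29c was -0.52. Its limma p was 0.030 unadjusted and 0.592 adjusted. The difference of miR-29a was -0.27, with limma p of 0.242 unadjusted and 0.745 adjusted. By ranks against the authors' normalized table, arrays 7 and 8 match wild types 1 and 2 of the labels, both male. The knockouts are of both sexes, so sex is uneven in this contrast, and its part was not tested.

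**Figure D2:**
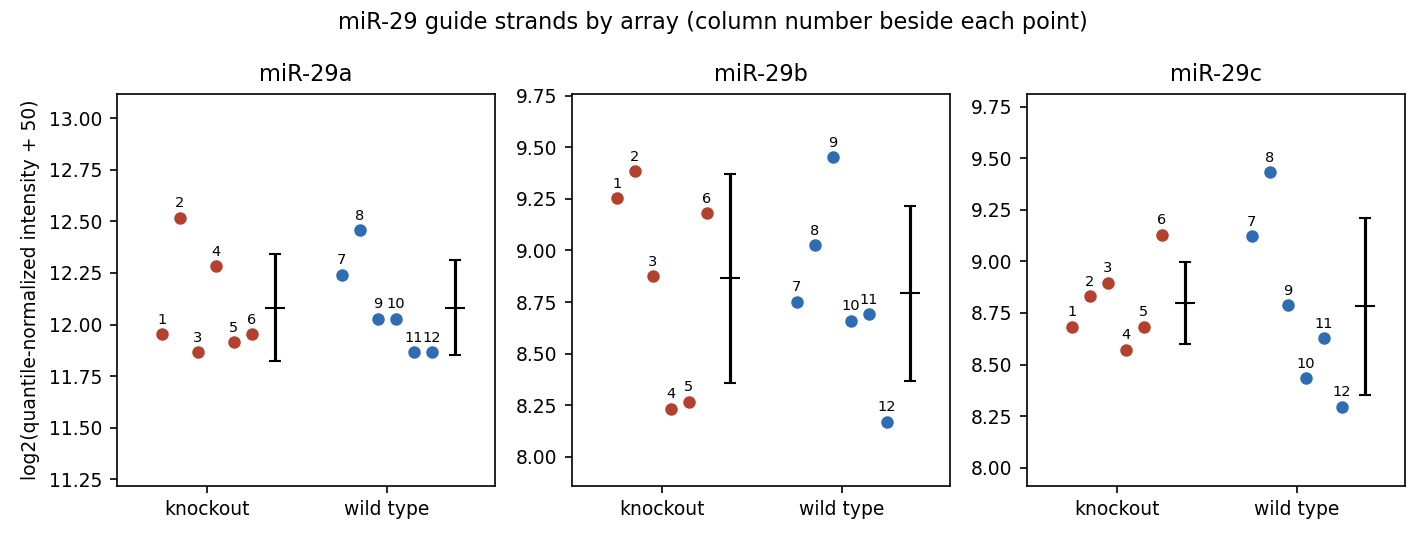
Level of each guide strand, as log2(quantile-normalized intensity + 50), by array, with the column number beside each point and the mean with its SD (n = 6) as a bar. Each panel spans the same number of log2 units, and in each the knockouts and wild types overlap.

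limma's adjusted p for genotype was 0.999 for miR-29a, 0.923 for miR-29b and 0.979 for miR-29c, with Benjamini-Hochberg adjustment over all 710 miRNAs. It called 0 of 710 miRNAs at 0.05 (0%), while 64 had an unadjusted p under 0.05 (9.01%). The count of 0 among the members is therefore that of the whole table. Groups that did not overlap were found for 0 of the 3 members and for 0.704% of all miRNAs. The 95% intervals of all 3 members lay within a factor of 2 in either direction, as did those of 93.1% of the 710 miRNAs. Differences smaller than these intervals cannot be seen with 6 arrays a group.

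The star strands gave almost no signal. miR-29a* read between 4 and 36 over the 12 arrays, miR-29b* between -24 and 60 and miR-29c* between -36 and 48. How values below 0 arose is not stated, as the background method is not given. miR-29a* was brighter than 2.11% to 17.0% of the miRNAs on an array, miR-29b* than 0.704% to 15.9% and miR-29c* than 0.282% to 7.89%. RefSeq lists 2 star strands for miR-29b, 1 per hairpin, and the name on the array does not say which the probe matches. The log2 differences were -0.10 for miR-29a*, 0.25 for miR-29b* and 0.20 for miR-29c*, with standard errors of 0.19, 0.25 and 0.24. limma's adjusted p was 0.832 to 0.889 for the 3 star strands. At intensities this near 0, no order was read from the values.

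**Figure D3:**
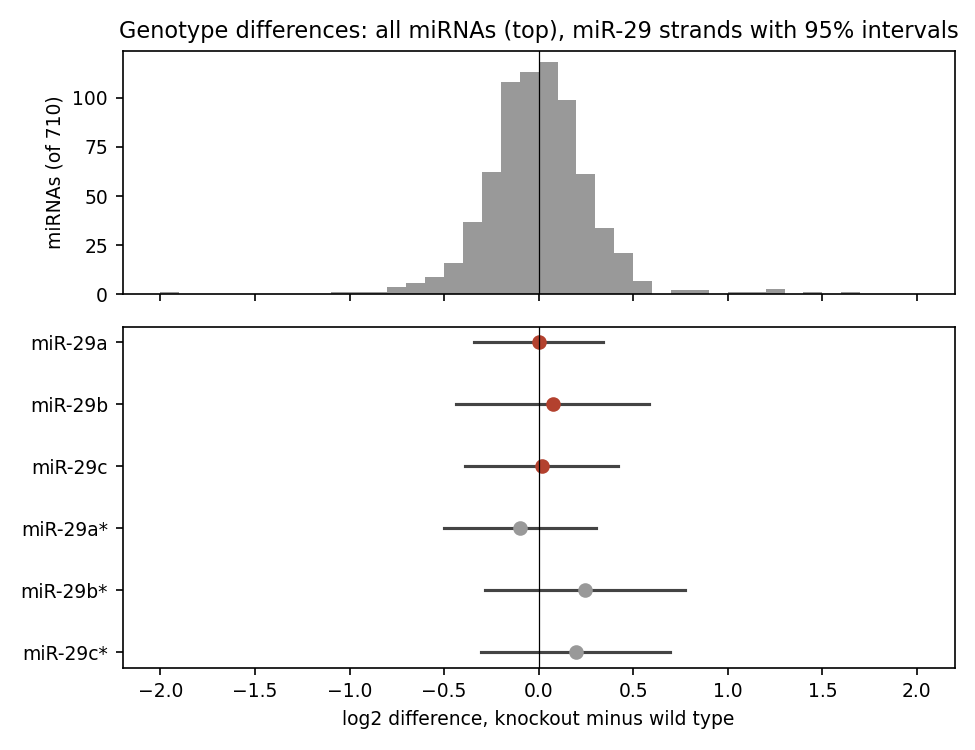
Log2 difference, knockout minus wild type, for all 710 miRNAs (upper panel, histogram) and for the miR-29 guide and star strands with their 95% confidence intervals (lower panel). The guides lie at 0.00030, 0.07 and 0.016, and every interval includes 0.

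The members varied together only in part once arrays were quantile-normalized. Pearson's r over 12 arrays was 0.51 for miR-29b and miR-29c, which share the cluster on chromosome 1 (permutation p = 0.0889, adjusted over 6 pairs 0.345). Spearman's rho of that pair was 0.63 (permutation p = 0.0325, adjusted 0.195). For miR-29a and miR-29c, of different clusters but 1 base apart, r was 0.48 (permutation p = 0.115, adjusted 0.345) and rho 0.35 (permutation p = 0.266, adjusted 0.532). For miR-29a and miR-29b, neighbours on chromosome 6, r was 0.27 (permutation p = 0.382, adjusted 0.459) and rho 0.35 (permutation p = 0.263, adjusted 0.532). None of these passed.

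For miR-29a and miR-29c, r was 0.92 over the 6 wild types. Over the 6 knockouts it was -0.23, and the difference between the genotypes was not tested. Wild types 7 and 8 were highest and wild type 12 lowest or tied for lowest for both miRNAs. Without knockout 2 and wild type 8, the 2 arrays farthest from the median of miR-29a, r fell to 0.22. Within genotypes, miR-29b and miR-29c correlated at 0.58 in knockouts and 0.56 in wild types, and miR-29a and miR-29b at 0.16 and 0.43. Without the 2 arrays farthest from its median on the x axis, r was 0.44 for miR-29b and miR-29c and -0.10 for miR-29a and miR-29b.

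The correlations depended on the scale. With arrays scaled to the 75th percentile, r was 0.91 for miR-29a and miR-29c and 0.67 for miR-29b and miR-29c, with adjusted permutation p of 6.0e-05 and 0.044. The first is the smallest that the permutations can give over 6 pairs. Without any normalization r was 0.94, 0.82 and 0.66 for miR-29a with miR-29c, miR-29b with miR-29c and miR-29a with miR-29b. These values share the brightness of the array. Guides and their own star strands correlated at -0.13 for miR-29a, 0.30 for miR-29b and -0.29 for miR-29c, with adjusted permutation p of 0.459 to 0.679.

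**Figure D4:**
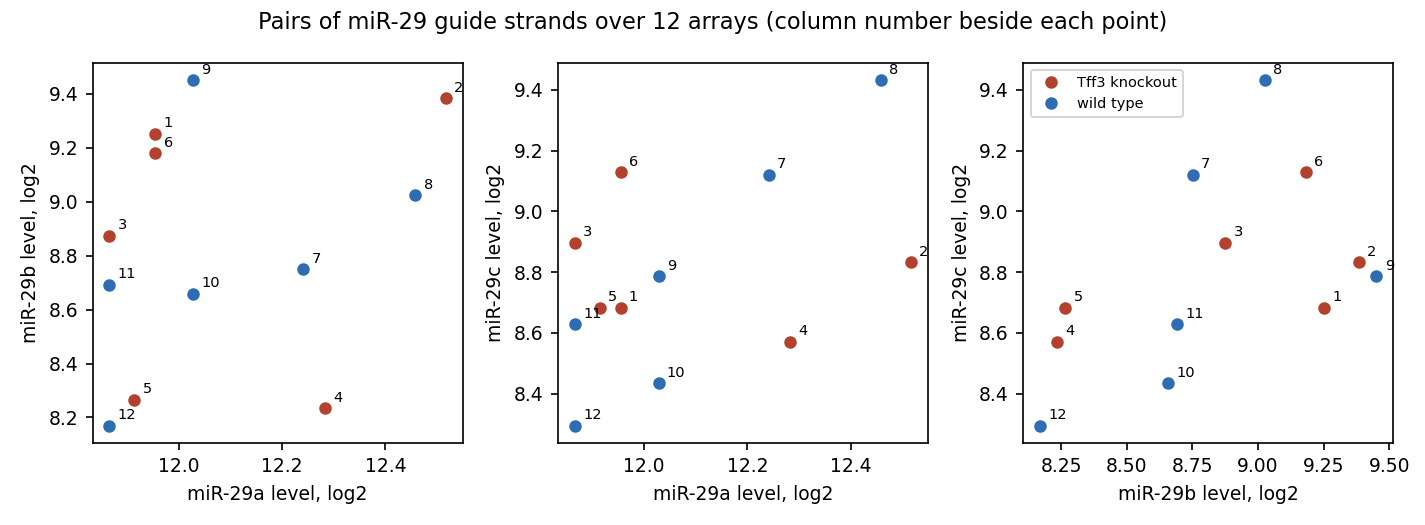
Levels of each pair of guide strands on the 12 arrays, as log2(quantile-normalized intensity + 50), with knockouts and wild types in different colours and the column number beside each point. Arrays 7 and 8 lie at the upper right of the miR-29a and miR-29c panel, and knockouts 4 and 5 at the lower left of the miR-29b and miR-29c panel with wild type 12.

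The difference between 2 members within an array can be followed over arrays, although its zero depends on the probes and its sign has no meaning. The level of miR-29b minus that of miR-29c was 0.57, 0.55, -0.02, -0.34, -0.42 and 0.05 in knockouts 1 to 6. It was -0.37, -0.41, 0.66, 0.22, 0.06 and -0.13 in wild types 7 to 12. It spread over about the same range in both genotypes, and the means were 0.07 ± 0.42 and 0.0084 ± 0.40 (SD, n = 6 each). The level of miR-29a minus that of miR-29c was steadier, at 3.28 ± 0.36 in knockouts and 3.30 ± 0.23 in wild types. For miR-29a minus miR-29b it was 3.22 ± 0.53 and 3.29 ± 0.39.

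Over both genotypes the sexes lay farthest apart for miR-29b, but no member passed the test. The sex of the wild types was read from the authors' normalized table, whose columns are named by sample. The ranks of each of its columns matched 1 raw column with Spearman's rho above 0.9999, so the 2 tables hold the same arrays. Levels in this part are log2(authors' value + 50), and wild types are numbered 1 to 6 as in the labels. In the labels samples 1 to 3 of each genotype are male and 4 to 6 female, and in the raw table the knockout columns follow that order, so sex and column order cannot be told apart.

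miR-29b was at 9.10, 9.22 and 8.76 in male and at 8.16, 8.18 and 9.04 in female knockouts. It was at 8.65, 8.89 and 9.29 in male and at 8.55, 8.59 and 8.09 in female wild types. All 3 wild-type females lay below all 3 wild-type males, whereas knockout 6, a female, lay among the male knockouts. Over both genotypes the mean level was 8.43 ± 0.36 for the females and 8.99 ± 0.26 for the males (SD over 6 mice each), and 5 of 6 females lay below the male mean. The log2 difference, female minus male, was -0.55 (standard error 0.18) in limma's fit with genotype. Its unadjusted limma p was 0.0087, and its adjusted p of 0.239 missed the threshold. Of the 710 miRNAs, 12.3% had an unadjusted limma p under 0.05, a share that was not counted at 0.0087.

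miR-29c separated the sexes in the wild types and not in the knockouts, and the test of that contrast missed the threshold. It was at 8.99, 9.27 and 8.68 in male and at 8.35, 8.53 and 8.21 in female wild types, with no overlap. In the knockouts it was at 8.58, 8.72 and 8.78 in males and at 8.47, 8.58 and 8.99 in females. The mean difference, female minus male, was -0.62 in wild types and -0.0089 in knockouts. The interaction of genotype and sex was 0.61 with a standard error of 0.29, and limma's adjusted p was 0.679 with an unadjusted p of 0.053. Of the 3 members 2, miR-29b and miR-29c, had all wild-type females below all wild-type males, as had 7.18% of the 710 miRNAs.

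miR-29a was at 11.998, 12.24 and 11.80 in male and at 11.80, 11.63 and 11.63 in female wild types. In the knockouts it was at 11.73, 12.32 and 11.63 in males and at 12.07, 11.68 and 11.73 in females. The wild-type sexes met at 1 value and the knockout sexes overlapped. Over both genotypes the log2 difference, female minus male, was -0.20 for miR-29a and -0.31 for miR-29c, with standard errors of 0.15 and 0.16 and limma's adjusted p of 0.579 and 0.416. The interaction was 0.26 for miR-29a and -0.04 for miR-29b, with limma's adjusted p of 0.817 and 0.984. limma called 0% of the 710 miRNAs for the interaction, and 42 had an unadjusted p under 0.05. For sex over both genotypes it called 1 of 710 (0.141%), miR-122, a liver miRNA named here after its value was seen. It called 0 with an offset of 1 and 0 without knockout 1, without knockout 2 or without any 1 of the wild types, and it called 5 without knockout 3.

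**Figure D5:**
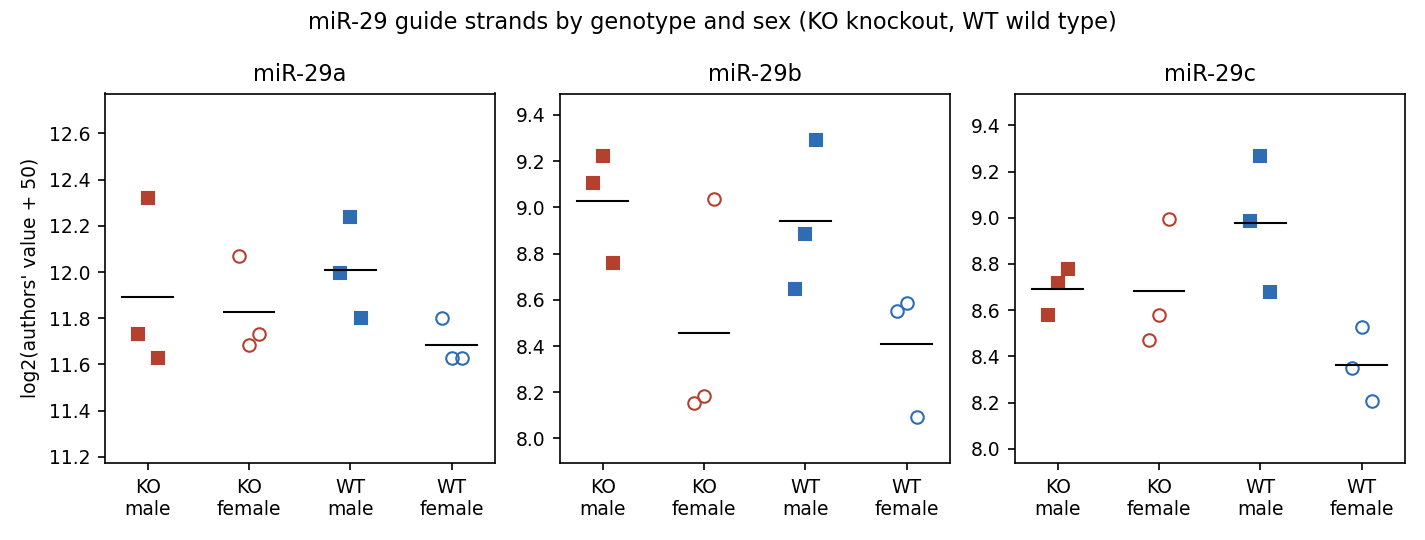
Level of each guide strand, as log2(authors' value + 50), in male (filled squares) and female (open circles) knockouts and wild types, 3 mice each, with the mean as a line. For miR-29b and miR-29c the wild-type females lie below the wild-type males, and for miR-29c the knockout sexes overlap.

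Within the knockouts of the raw table, 3 females against 3 males, the log2 difference was -0.61 for miR-29b (standard error 0.28), with limma's adjusted p of 0.708. It was -0.06 for miR-29a and -0.0096 for miR-29c, with limma's adjusted p of 0.939 and 0.986. limma called 0% of the 710 miRNAs, and 53 had an unadjusted p under 0.05. None of the 3 members had females all above or all below the males, against 11% of the 710 miRNAs. Without knockout 6 the difference of miR-29b was -0.92 (limma's adjusted p 0.289), and without knockout 4 it was -0.45 (0.627).

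The miRNAs whose levels followed the members most closely were taken from the 354 others at or above the median level, by Pearson's r over 12 arrays. For miR-29a they were miR-142-5p of leukocytes (0.61), miR-297c* (0.58) and miR-466e-3p (0.58). For miR-29b they were miR-30e (0.80), miR-466l (0.77) and the erythroid miR-451 (0.73). For miR-29c they were miR-297a* (0.79), miR-466b-3p (0.76) and miR-146a (0.76), which restrains inflammatory signalling. The median r was -6.2e-05, 0.0021 and -0.03 for the 3 members. The members did not lead each other's lists, as miR-29c was placed 14 for miR-29a and 13 for miR-29b, and miR-29b was placed 71 for miR-29a. The leading values are the top of 354 and describe these arrays only.

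miRNAs that share the pathways of miR-29 did not pass the genotype test either, and nor did any of the 710 miRNAs (0%). Of all 710, 351 had a positive and 359 a negative difference. Among 9 miRNAs that regulate T cells and interferon, 5 had a positive and 4 a negative difference and 0 passed, with a median of 0.07 against -0.0015 for all 710. The brightest were miR-19b and miR-17. miR-19b was at 13.74 ± 0.44 for knockouts and 13.32 ± 0.37 for wild types (SD over 6 arrays). miR-17 was at 12.19 ± 0.18 and 12.30 ± 0.18. An unadjusted limma p under 0.05 was found for 1 of these 9, miR-181a, against 9.01% of the 710. The difference of miR-181a was negative and is given with the lymphocyte miRNAs. It is named here after its value was seen. Among 10 miRNAs linked to fibrosis and the extracellular matrix, 5 were positive, 5 negative and 0 passed, with a median of 0.0096. Of these 10, 1 had an unadjusted limma p under 0.05. let-7d was at 13.36 ± 0.18 and 13.41 ± 0.25, and miR-30c at 11.55 ± 0.27 and 11.11 ± 0.40 with limma's adjusted p of 0.490. Among 6 miRNAs for which DNA methyltransferase transcripts are reported targets, 2 were positive, 4 negative and 0 passed, with a median of -0.03. Of these 6, 0 had an unadjusted limma p under 0.05. miR-148b was at 10.10 ± 0.64 and 9.69 ± 0.36, and miR-148a at 9.74 ± 0.28 and 9.93 ± 0.40.

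The miRNAs of blood cell types and of stromal and smooth muscle cells gave the same count. It was 0 members past the threshold in each of 5 lists, as for all 710 miRNAs (0%). Of 11 lymphocyte miRNAs, which include miR-150 of mature lymphocytes and the bright miR-26a, 6 were positive and 5 negative. Their mean level ran from 8.39 to 8.84 in knockouts and from 8.57 to 9.17 in wild types, with wild types 7, 8, 10 and 11 above every knockout. Of the 11, 4 had an unadjusted limma p under 0.05, against 9.01% of the 710 miRNAs, and all 4 had a negative difference: -1.08 for miR-181a, -0.89 for miR-181b, -0.57 for miR-181c and -0.60 for miR-342-3p, with limma's adjusted p of 0.135 to 0.535. These 4 are named after their values were seen. The 2 brightest members had positive differences. miR-26a was at 12.80 ± 0.38 and 12.69 ± 0.48, and miR-150 at 11.70 ± 0.61 and 11.54 ± 0.37. The mean of 6 platelet miRNAs ran from 8.81 to 9.39 and from 8.91 to 9.20, and that of 6 myeloid miRNAs from 10.02 to 10.20 and from 9.70 to 10.78. The highest myeloid mean was on array 8, where miR-29a and miR-29c were the highest among wild types, and the part of myeloid cells in these levels was not tested.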

How the data were processed

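Per the labels' protocols, RNA was labelled with biotin by a microfluidic primer extension assay on the array. Deposited were 1 table of raw intensity values, 710 miRNAs by 12 columns, from -64 to 64623, with 282 values below 0, and 1 table of normalized intensity values. No header states how either was made. The second has nearly equal columns with a floor of 1, so it looks quantile-normalized. No source used here gives the scanner, the background method or the miRBase release.

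Raw intensities were quantile-normalized and transformed to log2(value + 50). The filter, a value over the array minimum on 6 or more of the 12 arrays, kept all 710 miRNAs. limma 3.58.1 in R 4.3.3 was used for two-sided tests with Benjamini-Hochberg adjustment and a threshold of 0.05. The fit was also run on simulated data with independent noise for each miRNA. Those data held no effects of array, cell mix or sex, so they cannot show how the fit suits these arrays. Correlations used 100000 permutations in Python 3.11.15 with numpy 2.4.6, and figures matplotlib 3.10.9. The authors' normalized table served the fits that need the sex of each wild type. The sex difference over both genotypes was added after the data were seen. Per the labels' protocols each sample is the blood of another animal. The precision is limited by the number of arrays.

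The members and lists were chosen with earlier results of these data known. The miRNAs named by rule are the 3 members, their star strands and the 3 most correlated with each member. In each list the rule names those past the threshold or else the 2 brightest. Those of the erythroid, myeloid, platelet and stromal lists are given by their list mean only. Named besides, after their values were seen, are miR-122, miR-181a, miR-181b, miR-181c and miR-342-3p. Sequences are from RefSeq (GRCm38.p6), with 3 of 3 members matched. Alternatives were other normalizations, offsets, filters and variance models, an exact permutation test, column blocks, the authors' table, sex as a covariate, a replicate block and leaving out each array.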

Additional observations from a re-analysis of the deposited data

Results flagged for a closer look

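Among 18 groups of 6 arrays examined (6 strands and 3 within-array differences between members, in both genotypes), 1 had an outlying array, and about 1 in 20 would by chance. miR-29c* in wild type 7 was at 4.48, the other wild types being at 5.54 to 6.13, and lay below their mean by -1.33 on the log2 scale. Its raw intensity there was -36.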

How the results depend on the processing

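None of the alternatives fitted with limma brought a genotype or sex difference of a member, or their interaction, past the threshold. The exact permutation test, adjusted over 710 miRNAs, had little room to pass with 6 arrays a group and none with 3, so its lack of calls says nothing about stability. Directions were not stable where differences were near 0. The genotype difference of miR-29c was -0.033 with scaling to the 75th percentile, -0.068 with cyclic loess and -0.024 without normalization, and that of miR-29b was -0.0088 with array weights. With columns 1 to 8 and 9 to 12 as blocks the genotype differences were -0.27, -0.023 and -0.48 for miR-29a, miR-29b and miR-29c. With columns 1 to 8 only they were -0.27, -0.016 and -0.52. For miR-29c limma's unadjusted p was 0.035 with blocks and 0.030 with columns 1 to 8 only. The adjusted p was 0.699 and 0.592. Columns 9 to 12 hold wild types only, so the block term takes up those arrays. Both fits therefore set the knockouts against the wild types of columns 1 to 8 alone, which match male samples by ranks. The fits are not independent of each other. The sex difference in knockouts was 0.26, 0.13 and 0.066 for miR-29a with 75th percentile scaling, cyclic loess and no normalization, and 0.069, 0.00091 and 0.013 for miR-29c with 75th percentile scaling, cyclic loess and array weights. The cause of these changes was not tested.

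Leaving out 1 array gave genotype differences of -0.087 to 0.081, -0.051 to 0.21 and -0.083 to 0.14 for miR-29a, miR-29b and miR-29c. It gave sex differences in knockouts of -0.19 to 0.14, -0.92 to -0.45 and -0.18 to 0.10, and over both genotypes of -0.27 to -0.12, -0.68 to -0.48 and -0.42 to -0.21. The interactions ran from 0.13 to 0.48, -0.33 to 0.11 and 0.45 to 0.76. The correlations ran from 0.06 to 0.44 for miR-29a with miR-29b, 0.24 to 0.58 for miR-29a with miR-29c, 0.37 to 0.57 for miR-29b with miR-29c and -0.37 to 0.29 for miR-29a with its star strand. Correlations rose with 75th percentile scaling (0.91 for miR-29a with miR-29c, 0.67 for miR-29b with miR-29c, 0.31 for miR-29a with its star strand) and without normalization (0.94, 0.82 and 0.58, and 0.66 for miR-29a with miR-29b). Unnormalized values share the brightness of the array, and the cause of the rise with 75th percentile scaling was not tested.

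Replicate numbers are shared between genotypes in the labels, but same-numbered samples correlated at only -0.12 to 0.18, and 2 of 6 knockouts correlated best with their own number, so the numbers were not taken to pair the mice. With the replicate number as a block on the authors' table, the genotype differences were 0.013, 0.067 and 0.017 (replicate block), with 0 calls by limma and 72 unadjusted p under 0.05. The interaction could not be run without normalization, as its table is already normalized.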
